A study of Mus musculus with 15 samples.

Results

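Notch3 was the only member described here, 1 of 18194 genes named on the arrays. It was read by 2 of the 45101 probe sets, both annotated to Notch3 alone by the platform table, and was followed over all 15 arrays. The brighter probe set was 1421965_s_at and the dimmer one 1421964_at. The level of one probe set cannot be read against that of the other, so each was compared between groups on its own, and the distance between them was compared between genotypes. RNA came from male C57BL6J mice of 10 to 12 weeks, hybridised to Affymetrix mouse arrays as 1 sample per array. The mice carried Notch3 +/- or Notch3 -/- genotypes, that is 1 intact copy of the gene or none, and no wild-type group was analysed here. Brain SMC/pericyte cells, sorted by FACS, gave 4 Notch3 +/- arrays (replicates E, G, I and H) and 5 Notch3 -/- arrays (A, B, C, D and F), 1 per mouse by the design text. Aorta explants gave 3 arrays of each genotype (5556, 5561 and 6166 for Notch3 +/-; 5558, 5559 and 6167 for Notch3 -/-). For aorta no label ties an array to a mouse of its own. The p-values of that tissue therefore cover the spread between samples, which may be technical. The sources used here do not give how the Notch3 allele was disrupted or whether the probes lie in the disrupted part.

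Notch3 encodes a single-pass receptor of mural cells, that is of pericytes and the smooth muscle of vessel walls. A Jagged or Delta-like ligand on a neighbouring cell exposes the receptor to ADAM proteases and then to gamma-secretase. The freed intracellular domain enters the nucleus and acts with Rbpj on target genes of the Hes and Hey families. In people, mutations that change the number of cysteines in its EGF-like repeats cause CADASIL, an inherited disease of small brain arteries.

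The sources used here do not give the start site of the transcript that each probe set reads. The stretch before the RefSeq start site of Notch3 is shown as background. It covers 250 bases at chr17:32166891-32167140 on the minus strand of GRCm38.p6, printed 5′ to 3′ with each match to the GC box GGGCGG, on either strand, in capitals.
Notch3 promoter: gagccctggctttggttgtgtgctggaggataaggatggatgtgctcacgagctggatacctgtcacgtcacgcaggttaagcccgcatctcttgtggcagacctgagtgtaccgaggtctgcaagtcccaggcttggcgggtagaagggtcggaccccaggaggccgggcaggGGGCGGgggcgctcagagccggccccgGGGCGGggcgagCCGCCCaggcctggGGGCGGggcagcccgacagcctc
GC made up 68.8% of these bases, against a median of 52.4% over the same window of all RefSeq promoters. With the 50 bases after the start included, the window held 4 GC boxes. At least 1 was present in 35.7% of 32851 promoters of that length. The core letters bound by Rbpj, TGGGAA, were searched on both strands and were not in this window, while 25.6% of promoters held them. The CArG box of serum response factor was likewise not in the window and was present in 1.63% of promoters. These are matches of letters, not sites of binding.

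All 15 arrays had a trimmed mean near the authors' target, and arrays of a group correlated at r between 0.932 and 0.981 over all probe sets. The mural markers fixed for the check were present in the sorted brain cells, with 6 of 6 above the array median on every brain array and a summed intensity of 26596 to 55872 in Notch3 +/- and 25573 to 34098 in Notch3 -/-. Markers of other brain cells were present too. Endothelial markers summed to 12035 to 23525 and 15714 to 19480, oligodendrocyte markers to 21359 to 33696 and 23122 to 30387, and astrocyte markers to 4791 to 15057 and 7573 to 15607. Microglia and macrophage markers summed to 7978 to 13104 and 8163 to 15001, and neuron markers to 553 to 1530 and 732 to 1206. Most of 4 of these sums came from single genes. These were Cldn5 (mean 15991 in Notch3 +/- and 15019 in Notch3 -/-), Mbp (22389 and 23104), Aldoc (7584 and 7557) and Csf1r (9697 and 10705). The oligodendrocyte marker Mog read 19.6 and 23.6 and the microglia marker Aif1 9.37 and 28.0. The 6 smooth muscle markers summed to 22459 to 39240 in Notch3 +/- brain cells and 11427 to 18807 in Notch3 -/-, with no overlap. Most of this sum came from Acta2 (mean 20581 in Notch3 +/- and 12907 in Notch3 -/-). Acta2 itself did not pass between the genotypes (limma adjusted p = 0.352), while Myh11, Tagln and Smtn did, as given below. The 5 fibroblast markers summed to 1055 to 1805 and 1772 to 4632. Dcn read 320 ± 134 and 735 ± 201 and Col3a1 869 ± 262 and 1948 ± 909 (SD, n = 4 and 5). Lum (112 ± 44.9 and 187 ± 52.3) and Col1a1 (51.3 ± 32.3 and 99.1 ± 37.0) were higher in Notch3 -/- too. Pdgfra was lower (96.0 ± 28.3 and 83.2 ± 22.0). Adipocyte markers were near the floor, at 18.2 to 51.7 and 19.2 to 45.0. In aorta smooth muscle markers summed to 33624 to 36675 in Notch3 +/- and 33544 to 37412 in Notch3 -/-, and fibroblast markers to 21549 to 24153 and 22587 to 24567. Adipocyte markers there summed to 4078 to 6743 and 3086 to 5623. The mean of each adipocyte marker was lower in Notch3 -/- aorta, with Fabp4 at 4598 ± 1051 and 3233 ± 999 (SD, n = 3 each), which was not tested. In such bulk samples fewer cells of a type and less RNA per cell cannot be told apart.

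Sorted brain cells without Notch3 lost most of the signal of the brighter probe set. Its intensity was 2775 on array E, 2558 on G, 2805 on I and 2326 on H in Notch3 +/-, and 228 on A, 150 on B, 249 on C, 217 on D and 206 on F in Notch3 -/-. Every Notch3 -/- array lay far under every Notch3 +/- array, with H the lowest of its group and B the lowest of all. The means were 2616 ± 222 (SD, n = 4) and 210 ± 37.0 (SD, n = 5), a ratio of 12.5 on the linear scale. On the log2(intensity + 16) scale the fall was -3.56 (SE 0.16, 95% interval -3.90 to -3.21, limma adjusted p = 4.31e-08). Among 22519 probe sets tested, 0.12% passed an adjusted p of 0.05 in the lower direction, and 1.85% had all Notch3 -/- arrays under all Notch3 +/- arrays. Notch3 had both the smallest p and the largest difference of the table. The smooth muscle marker sum was lower in every Notch3 -/- brain array too, while the mural sums overlapped, and their part in the Notch3 difference was not tested. Of the 32 probe sets called in either direction, the count was 10 without H, 14 without D, 15 without G and 21 without C.

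The dimmer probe set gave a smaller difference in the same cells. It read 183 on E, 166 on G, 165 on I and 148 on H, against 66.6 on A, 31.9 on B, 26.7 on C, 37.5 on D and 29.8 on F. The groups did not overlap, and array A stood above the other Notch3 -/- arrays. The log2 difference was -1.77 (SE 0.21, limma adjusted p = 0.00325), the fifth smallest p of the table.

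The signal left in Notch3 -/- was not of one rank for the probe sets. In Notch3 +/- brain cells the brighter one lay above 97.9% to 98.5% of all probe sets of its array. In Notch3 -/- it still lay above 76.7% to 83.1%, at 8.03% ± 1.42 (SD, n = 5) of the Notch3 +/- mean. The dimmer one went from above 75.6% to 78.6% of probe sets to above 37.1% to 56.3%, at 23.3% ± 9.79 (SD, n = 5) of the Notch3 +/- mean. These shares include whatever background the deposited intensities hold, and detection calls were not used here.

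**Figure D1:**
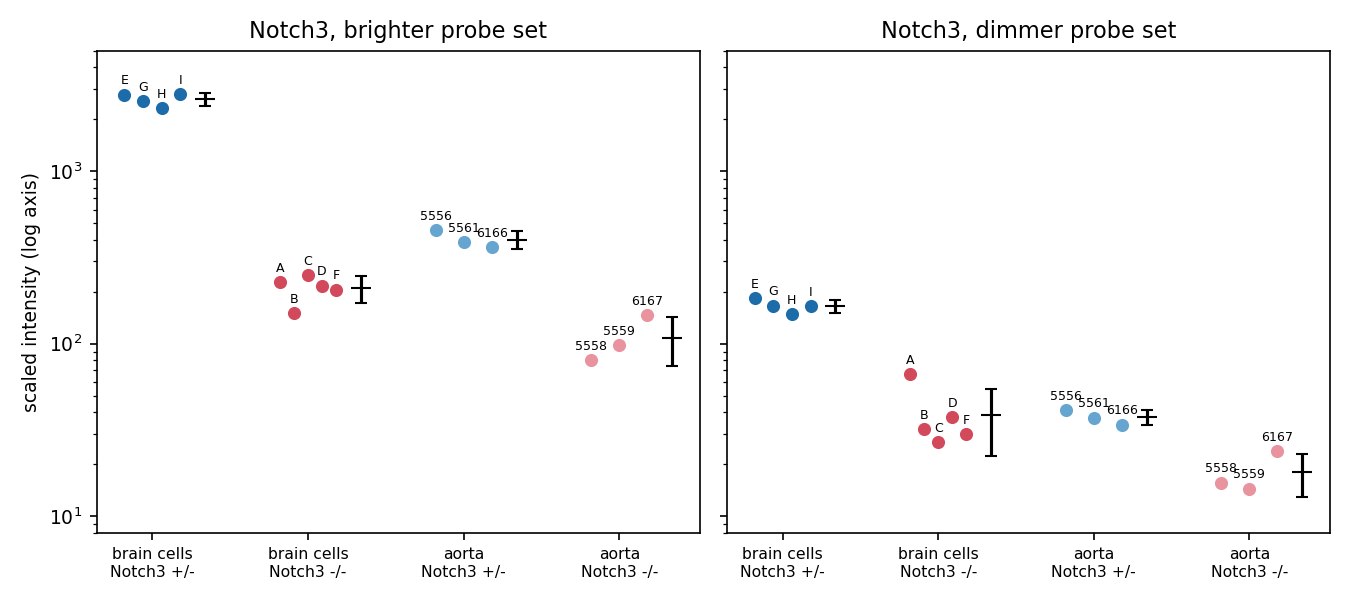
Scaled intensity of Notch3 on each array (log axis), at the brighter probe set on the left and the dimmer one on the right; points are arrays named as in the labels and bars are the group mean with its SD. At the brighter probe set the 4 Notch3 +/- brain arrays sit between 2326 and 2805 and the 5 Notch3 -/- brain arrays between 150 and 249.

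Aorta explants held less Notch3 signal than the brain cells to begin with, and less again without the gene. The brighter probe set read 453 on 5556, 387 on 5561 and 362 on 6166 in Notch3 +/-, and 80.1 on 5558, 97.9 on 5559 and 146 on 6167 in Notch3 -/-. The groups did not overlap, and 6167 was the highest array of the Notch3 -/- group. The means were 401 ± 47.2 and 108 ± 34.1 (SD, n = 3 each), which left 26.9% ± 8.51 (SD, n = 3) of the Notch3 +/- mean. The log2 difference was -1.78 (SE 0.19, 95% interval -2.21 to -1.35). It had the smallest p of 22519 probe sets but did not pass after adjustment (limma adjusted p = 0.135).

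No probe set of the aorta table passed (0% called by limma; 980, or 4.35%, had an unadjusted p under 0.05), while 4.75% had all Notch3 -/- arrays under all Notch3 +/- arrays. Without 6167 the Notch3 difference was -1.99 and passed (adjusted p = 0.0168), and with all 15 arrays in the fit it passed at 0.000868. It passed in no other setting run. The limma adjusted p was 0.667 without 6166, 0.661 with no filter, 0.513 with no intensity trend and 0.32 without 5559. Without 1 array the count of probe sets called was 7 for 5556, 7 for 6167 and 1 for 5559. The labels do not say what the aorta array numbers mean, which begin with 55 or with 61. Among those with 55, with 2 arrays a genotype, the difference was -2.06, and among those with 61, with 1 array a genotype, it was -1.22. The dimmer probe set read 41.2, 37.2 and 33.9 in Notch3 +/- and 15.6, 14.4 and 23.8 in Notch3 -/-. It was under the brightness filter and so was not tested in the main comparison. Its difference was -0.66 (limma adjusted p = 1 with no filter), with no overlap between the groups.

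The brighter probe set fell further in brain cells than in aorta. The difference between the genotype differences was -1.78 (SE 0.25, 95% interval -2.31 to -1.24, limma adjusted p = 0.0117), the second smallest p in a table where 0.0178% of 22519 probe sets passed in either direction. The call was lost without aorta array 5561 (adjusted p = 0.0683) or 6166 (0.0824). Without 1 array the number of probe sets called went from 4 to 7 for 5556, 1 for 5561, 1 for 5558 and 0 for 6166. At the dimmer probe set the difference was -1.11 and did not pass (adjusted p = 0.568). Notch3 +/- aorta started from a lower mean, 401 against 2616, and the part of the starting level in this difference was not tested.

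**Figure D2:**
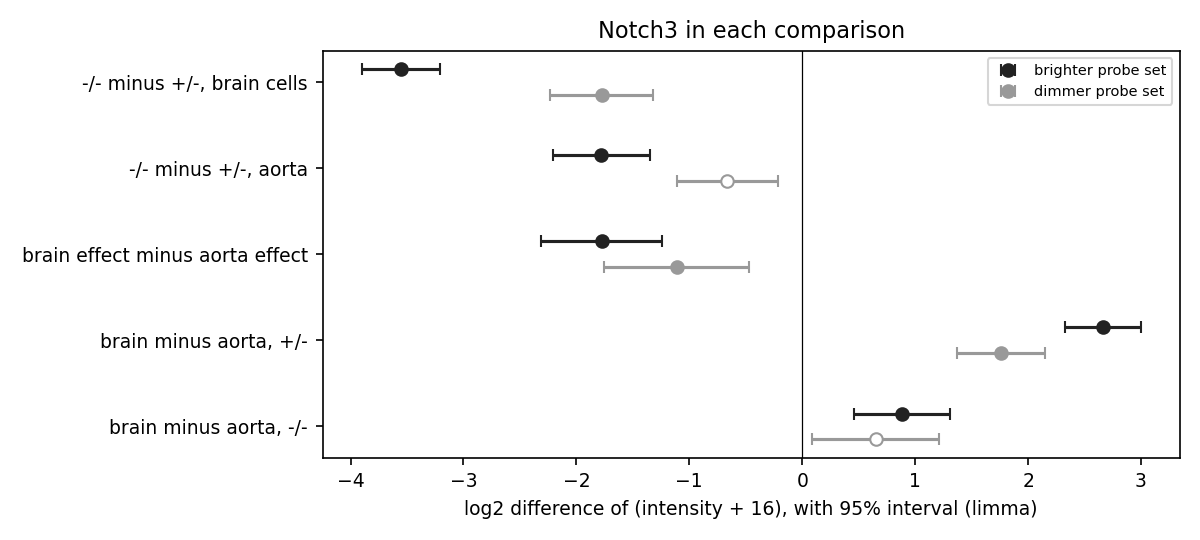
Log2 difference of Notch3 in each comparison with its 95% interval from limma, for the brighter (black) and dimmer (grey) probe set; open points mark a probe set under the brightness filter, whose value comes from the fit with no filter. The largest difference is that of the brighter probe set in brain cells, -3.56.

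Across the 4 groups the brighter probe set ranked Notch3 +/- brain cells first, then Notch3 +/- aorta, Notch3 -/- brain cells and Notch3 -/- aorta. Brain cells exceeded aorta in Notch3 +/- by 2.66 (SE 0.15, 6.32-fold, limma adjusted p = 2.78e-07), in a table where 26.5% of probe sets were called higher in brain and 28.6% had every brain array above every aorta array. In Notch3 -/- they exceeded it by 0.88 (SE 0.20, 1.84-fold, limma adjusted p = 0.00158), where 33.6% were called higher and 31.7% had no overlap in that direction. The gap there between the lowest brain array (150) and the highest aorta array (146) was small. Notch3 +/- aorta, at 362 to 453, did not overlap Notch3 -/- brain cells, at 150 to 249 (difference 0.89, two-sided exact permutation p = 0.0179, the smallest that 3 against 5 arrays can give). This pair was chosen after its values were seen, and the share of all probe sets without overlap in it was not counted. Tissue and the way RNA was prepared cannot be told apart in any of these differences.

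The dimmer probe set gave another order in the middle. Notch3 +/- brain cells were again highest, above Notch3 +/- aorta by 1.76 (SE 0.18, limma adjusted p = 1.39e-05). Notch3 +/- aorta (33.9 to 41.2) and Notch3 -/- brain cells (26.7 to 66.6) overlapped, with a difference of 0.01 (two-sided exact permutation p = 1). In Notch3 -/- the brain cells were 0.65 above aorta with no overlap, under the filter (adjusted p = 0.0664 with no filter, 0.013 with all 15 arrays in the fit).

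The probe sets of Notch3 did not move in step between genotypes. The log2 distance from the dimmer to the brighter was 3.81 to 3.97 on the Notch3 +/- brain arrays and 1.56 to 2.64 on the Notch3 -/- ones. Its mean fell by 1.78 (two-sided exact permutation p = 0.00794, the smallest that 4 against 5 arrays can give). In aorta the distance was 2.92 to 3.04 in Notch3 +/- and 1.60 to 2.03 in Notch3 -/-, a mean change of -1.11 (exact permutation p = 0.1, the smallest possible). This shows unequal change on this scale, not that either reading was constant.

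Within a group the relative spread of Notch3 was larger in Notch3 -/- than in Notch3 +/-, which was not tested. The coefficient of variation of the brighter probe set was 8.49% in Notch3 +/- brain cells, 17.6% in Notch3 -/- brain cells, 11.8% in Notch3 +/- aorta and 31.6% in Notch3 -/- aorta. Its log2 value ranged over 0.27, 0.67, 0.31 and 0.75 in these groups. Its SD went the other way, at 222, 37.0, 47.2 and 34.1 in the same order. For the dimmer probe set the coefficient of variation was 8.62%, 42.0%, 9.77% and 28.4% and the SD 14.3, 16.2, 3.66 and 5.09, again in that order. No group has 6 arrays, so deviations from the group means were pooled over the 9 brain arrays, the 6 aorta arrays and all 15. The deviations of the 2 probe sets correlated at r = 0.23 (rho 0.18) in brain, with exact permutation p = 0.581 and 0.678, and without arrays B and H, farthest from the median, r was -0.03. In aorta r was 0.91 and rho 0.77, with exact permutation p = 0.0833 and 0.194. Without 6167 and 5558 r was 0.98 over 4 arrays. Both arrays left out were Notch3 -/-, so the single array left of that genotype had no deviation from its own mean. That r therefore came from the Notch3 +/- arrays alone and says nothing about Notch3 -/- aorta.

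Within the brain groups the slope of 1 gene on the Notch3 level passed the test, and that call rested on single arrays. With group means in the model, limma called 2 of 22517 probe sets (0.00888%) for a slope on the Notch3 level, both of Mndal, an interferon-inducible nuclear protein of the p200 family. Genes of that family resemble each other in sequence, so which of them the probes read is uncertain. The brighter Mndal probe set read 473 on E, 513 on G, 389 on I and 214 on H. It read 591 on A, 0.208 on B, 616 on C, 294 on D and 207 on F. Arrays H and B were low for Mndal, as they were for Notch3, and B was near 0. The slope was 7.58 (SE 0.80, limma adjusted p = 0.0073), with r = 0.95 and rho = 0.75 over 9 arrays. Without B and H r was 0.70 over 7 arrays. The limma call was lost without B (slope 4.44, adjusted p = 0.615) or C (slope 8.0, 0.0511), and no probe set was called without either. With the dimmer probe set as the Notch3 level the slope was 1.90 (0.935). The count was 1 without A, D or F.

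Lfng, which encodes Lunatic fringe, a glycosyltransferase that modifies the EGF-like repeats of Notch receptors, had the fourth most positive slope among 12049 genes and did not pass the test. It read 45.5 on E, 29.5 on G, 60.0 on I and 19.7 on H, and 72.0 on A, 18.7 on B, 91.5 on C, 58.4 on D and 48.3 on F. In both genotypes its order over the arrays was that of Notch3. Over the 9 arrays r was 0.97 and rho 0.98, and over 7 arrays without B and H r was 0.95. Lfng was named for this slope, so these are a description. The slope was 2.61 (SE 0.54, limma adjusted p = 0.736 over 22517 probe sets), and 0.49 (0.962) with the dimmer probe set as the Notch3 level. The Lfng probe set used was near the brightness cut, with means of 38.7 in Notch3 +/- and 57.8 in Notch3 -/-. Without A or without C it was under the filter and was not tested. The other Lfng probe set was under the brightness filter and gave r = 0.68 and a slope of 0.44. Lfng itself differed between the genotypes in brain by 0.40 (adjusted p = 0.74).

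The other genes nearest the top in brain were Trappc12 (r = 0.91), Gemin5 (0.95), the splicing factor Srsf5 (0.89) and 4930542D17Rik (0.88), with limma adjusted p of 0.464 to 0.761. Without B and H these became 0.55, 0.76, 0.34 and 0.40. At the negative end stood Bcap31 (r = -0.93), a protein of the endoplasmic reticulum, Ercc1 (-0.87), a DNA repair endonuclease subunit, and Lrrc41 (-0.90). Ttc27 (-0.82), Ctla2b (-0.87) and Snap47 (-0.94) followed, with adjusted p = 0.89 for all of these by limma. Bcap31 read 2370, 3174, 2036 and 3394 on E, G, I and H and 3019, 5487, 2909, 3121 and 3824 on A, B, C, D and F. It was highest on H and on B in their groups, where Notch3 was lowest. Without B and H its r was -0.79. Its slope was -1.61, and -0.40 with the dimmer probe set as the Notch3 level.

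**Figure D3:**
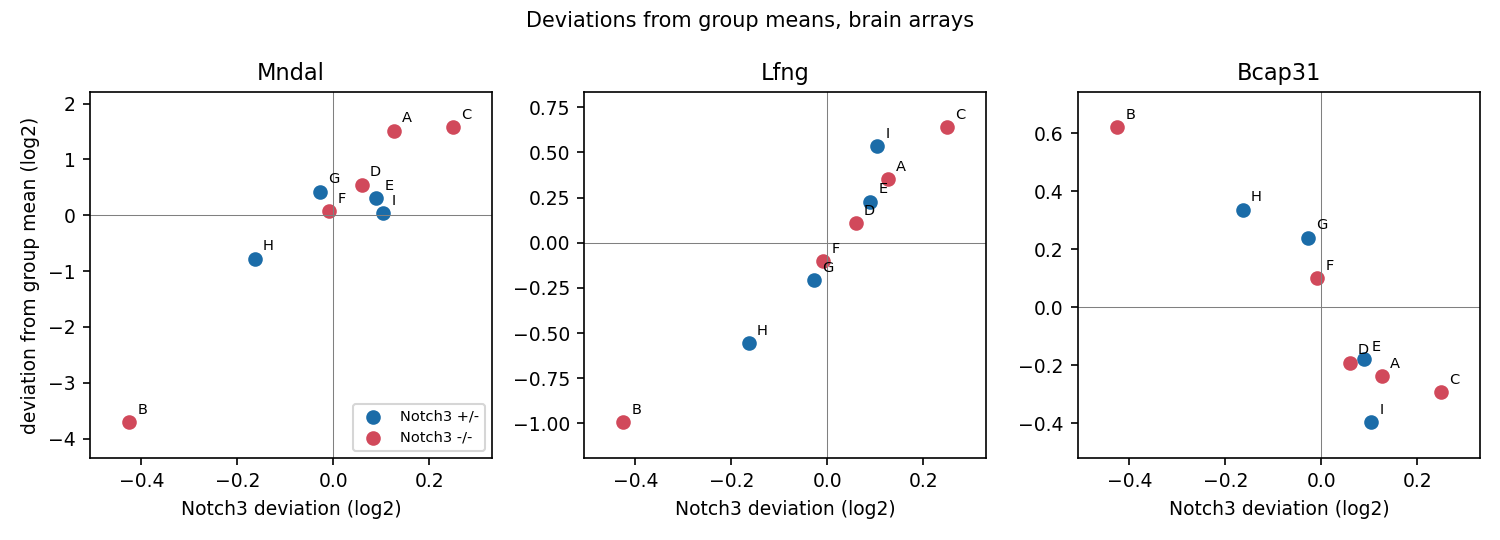
Deviation of Mndal, Lfng and Bcap31 from the group mean against that of Notch3 (brighter probe set), in log2 units, on the 9 brain arrays; each point is an array, coloured by genotype and named as in the labels. Array B lies far from the others for Mndal, and the 9 points of Lfng lie near 1 line.

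In aorta and over both tissues no transcript passed. Limma called 0 of 22518 probe sets in aorta, with 1477 (6.56%) at an unadjusted p under 0.05, and 0 of 22517 over all 15 arrays, with 1172 (5.2%). The most positive genes in aorta were Aifm2 (r = 0.99), Tnfrsf4 (0.99) and Erdr1 (0.92) and the most negative Selenom (-0.96), Lsm11 (-0.99) and Eva1c (-0.98), each over 6 arrays with adjusted p = 0.754. Over all 15 arrays the most positive were Glrb (r = 0.85), a glycine receptor subunit, Dhrs2 (0.85), Elovl6 (0.81), Fam184a (0.73), Cyp51 (0.76) and Dok2 (0.77). The most negative were Ubxn1 (-0.89), Cd59a (-0.82), Tcf15 (-0.83), Ttc27 (-0.72), Tlcd3a (-0.80) and Lims2 (-0.75), all at limma adjusted p = 0.906. Without 6167 and B, Glrb had r = 0.74 and Ubxn1 -0.78, and Cyp51 fell to 0.17. Ttc27 was the only gene named both in brain and over all arrays, which share the brain arrays.

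No gene of the smooth muscle and mural list passed for a slope on the Notch3 level. In brain Myh11, the smooth muscle myosin heavy chain, had r = -0.33 (rho -0.23, exact permutation p = 0.483 and 0.582) and Acta2, smooth muscle actin, r = -0.51 (rho -0.38, exact permutation p = 0.128 and 0.331). Without B and H their r became 0.79 and 0.20, so both signs rested on those arrays. The platelet-derived growth factor receptor Pdgfrb had r = -0.50 (rho -0.55, exact permutation p = 0.0156 and 0.116; limma adjusted p = 0.89) and -0.34 without them. Of the 16 genes of the smooth muscle and mural list 14 were tested in brain, and 9 had r below 0, with a median r of -0.33 against 0.05 over all genes tested. For the 8 Notch target genes the median r was -0.13, with 6 below 0. Among 9 marker lists the marker level correlated with Notch3 at r between -0.45 for smooth muscle and 0.55 for microglia and macrophages in brain. None was under an exact permutation p of 0.189. Over all 15 arrays smooth muscle markers had r = -0.47 (exact permutation p = 0.0465, 0.418 adjusted over the lists). Without 6167 and B it was -0.28. Of the smooth muscle and mural list 12 of 15 genes tested in aorta and 13 of 14 over all arrays had r below 0. Of all genes tested, 53.2% and 55.5% lay above 0.

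No other listed gene of the Notch pathway passed between the genotypes in brain. In aorta no probe set of the whole table passed, Notch3 included, and of the 5 ligands only 2 were tested there. Among the other receptors, Notch1 differed between genotypes in brain by -0.23, Notch2 by 0.20 and Notch4, the endothelial receptor, by -0.46, with limma adjusted p of 0.436 to 0.744. In aorta they differed by -0.14, 0.12 and -0.32 (adjusted p = 0.999 each). The ligand Jag1 differed by -0.36 in brain and by 0.36 in aorta (adjusted p = 0.555 and 0.999), and the difference of these differences was -0.72 (0.933). The transcription factor Rbpj differed by 0.22 and 0.15 (adjusted p = 0.681 and 0.999). None of 5 ligands, 12 processing enzymes, 4 nuclear factors and 10 modulators tested in brain passed in either direction, where 0.142% of all probe sets did.

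The Notch target genes had a median difference of -0.52 in brain, 7 of 8 below 0 and none passed, against 0.01 over all genes tested. In aorta 7 of the 8 were tested and the median was 0.09, with 1 below 0 and none passed. Heyl, a repressor of the Hey family, differed by -0.51 in brain and 0.07 in aorta, and Hes1 by -0.66 and 0.17. Hey2 differed by -0.22 and 0.12. Their adjusted p by limma was 0.402 to 0.881 in brain and 0.999 in aorta. The nuclear receptor-interacting Nrip2 has 2 probe sets that differ. The one brightest in brain gave -1.34 there (adjusted p = 0.121) and -0.52 in aorta, where it was under the filter (1 with no filter). The other, which stands for Nrip2 in the aorta list, gave -0.43 in brain (0.573) and 0.06 in aorta (0.999). Of the smooth muscle and mural list 3 of 14 tested members were called lower in brain, where 0.12% of all probe sets were. They were Myh11 (-1.67, limma adjusted p = 0.0208), Tagln (-1.56) and Smtn (-1.16, adjusted p = 0.0204 for each of the last 2). In all, 11 of the 14 had a difference below 0, where 51.1% of all genes tested lay above 0. The median of the list was -0.42. Without H none of the 3 passed (adjusted p = 0.0686 to 0.0889). Myh11 did not pass without G (0.0525), A (0.0529) or D (0.0678) either, nor Tagln without G (0.0885) or Smtn without D (0.0508). Smtn stood at 0.05 without A. In aorta the median of the list was 0.06 over 15 members, with none passed. Pdgfrb (-0.46) and Rgs5 (-0.43), a regulator of G-protein signalling in pericytes, did not pass in brain (adjusted p = 0.611 and 0.415). Notch3 differed by -3.56 in the same cells.

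**Figure D4:**
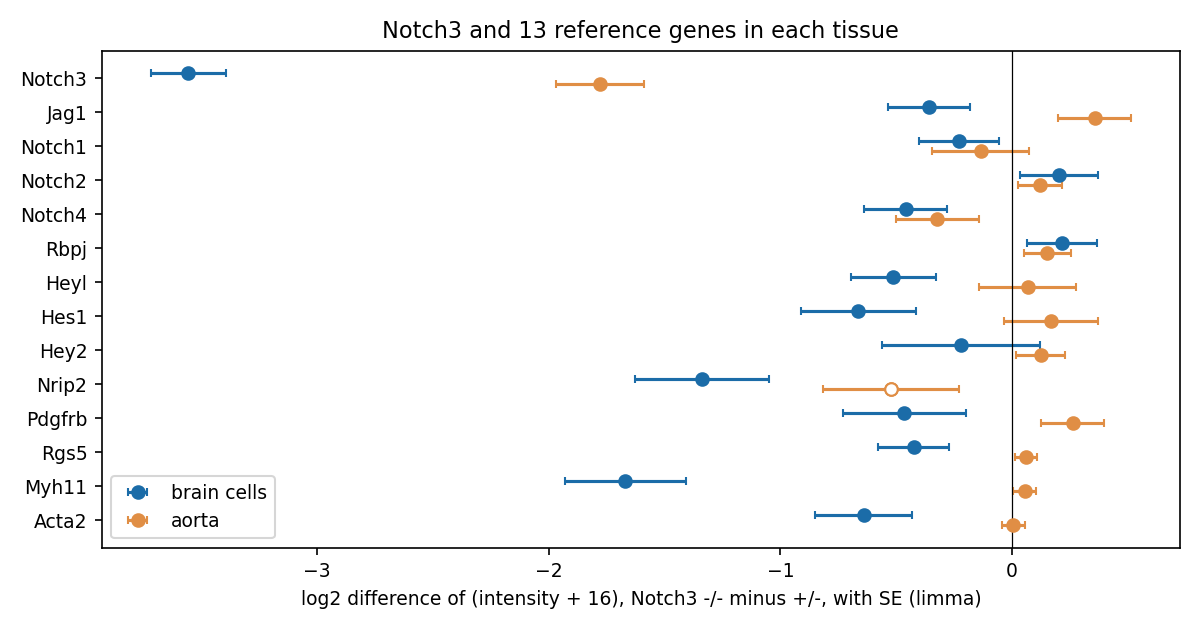
Log2 difference between Notch3 -/- and Notch3 +/- with its SE from limma, in brain cells (blue) and aorta (orange), for Notch3 (brighter probe set) and 13 reference genes of the pathway and of mural cells. The open point marks a probe set under the brightness filter (Nrip2 in aorta, at the probe set named in brain). Notch3 lies at -3.56 and -1.78, and of the 13 reference genes Myh11 lies farthest from 0, at -1.67 in brain cells.

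The profiles most like that of Notch3 over all 15 arrays were those of genes with their highest mean in Notch3 +/- brain cells. Likeness was the root mean square difference between log2 profiles, each centred on its own mean, over 11980 genes. A gene with no variation would stand at 1.68, and the median gene stood at 1.70. The nearest was Tesc, a calcium-binding protein (0.93), followed by the T-type calcium channel Cacna1h (1.09), the sarcoplasmic reticulum protein Srl (1.10) and the secreted Crispld2 (1.12). Ephx3, an epoxide hydrolase (1.13), the transcription factor Cebpb (1.16), the histone gene H2bc18 (1.17) and the potassium channel Kcna5 (1.19) came next. Even the nearest therefore remained more than a log2 difference of 0.9 from Notch3 on average. Arrays of a group share tissue, sort and genotype, so this is a description, with no test.

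All 8 differed less between the genotypes than Notch3 in both tissues, which was not tested. In brain cells, where Notch3 differed by -3.56, they differed by -2.31 (Tesc), -1.96 (Cacna1h), -1.68 (Crispld2), -1.38 (Srl), -1.36 (H2bc18), -1.26 (Ephx3), -1.03 (Cebpb) and -0.89 (Kcna5). Between genotypes in aorta, Notch3 differed by -1.78, and these 8 by -0.58 (Kcna5), -0.49 (Cebpb), -0.09 (H2bc18), -0.06 (Crispld2) and between -0.01 and 0.09 for Srl, Cacna1h, Ephx3 and Tesc. Tesc read 1150 to 2564 in Notch3 +/- brain cells and 251 to 338 on 4 Notch3 -/- brain arrays, but 765 on B. Array B was the lowest of the Notch3 -/- brain arrays for Notch3 and the highest for Tesc. Cebpb read 1091 ± 337 (SD, n = 4) and 529 ± 151 (SD, n = 5) in brain cells and 399 ± 91.8 and 277 ± 38.6 (SD, n = 3 each) in aorta. Over the brain arrays alone the nearest were Cacna1h (0.87), Tesc (0.91), Casq2, the calcium store protein (0.94), Myh11 (1.07) and Tagln (1.10). Over the aorta arrays alone they were Tcim (0.45), the metallothionein Mt1 (0.46), Gxylt2 (0.48), Timp4 (0.51) and Angptl4 (0.51). No gene was on both of these lists. Of the 8 genes nearest over all arrays, 6 had a promoter in the RefSeq table. The Rbpj core TGGGAA was in 1 of these, Kcna5, and the GC box in 3, against 25.6% and 35.7% of all promoters. The CArG box was in none, against 1.63%. The E-box CANNTG, with N any base, was in 5, against 72.3%, and was not in the Notch3 window. A gene was counted if any of its promoters matched, while the shares are per promoter.

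**Figure D5:**
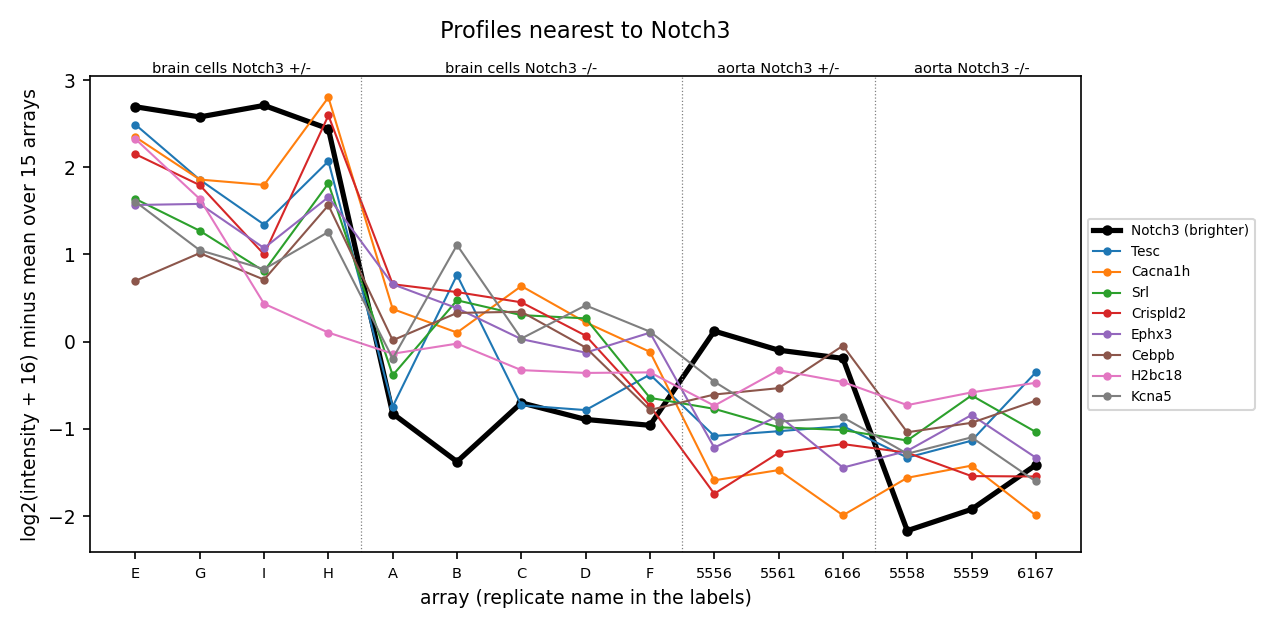
Log2(intensity + 16) of Notch3 (brighter probe set, black) and of the 8 genes with the nearest profiles, each centred on its mean over 15 arrays; arrays are named as in the labels, dotted lines part the groups, and lines between points only guide the eye. Notch3 drops between Notch3 +/- and Notch3 -/- in both tissues, while Tesc is higher on B than on the other Notch3 -/- brain arrays.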

How the data were processed

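The deposited values are linear intensity per probe set, which the authors scaled to a target intensity of 150 per array (15 µg cRNA hybridised), per the labels' series design. The sources used here name no summarising algorithm or background correction. Gene names came from the platform annotation, updated through a RefSeq gene table (GRCm38.p6). Of 45101 probe sets 34958 had 1 symbol, 932 several and 9211 none. The 64 control probe sets were left out. Groups came from the sample titles. Values were taken as log2(intensity + 16), which understates changes of dim probe sets. The brighter 50% of probe sets by mean log2 value were tested (22519 per comparison) with limma 3.58.1 in R 4.3.3 (intensity trend, two-sided, Benjamini-Hochberg adjustment over all tested, threshold 0.05). Within-group relations used group means plus the Notch3 level as terms, with Notch3 probe sets left out. Exact permutations shuffled Notch3 deviations within groups. Genes named were those nearest in profile (8 over all arrays, 5 per tissue), those with the most positive and most negative slopes (6 each, 3 each in aorta), and 13 reference genes, at the brightest probe set. The fits were tested on simulated data. Members and lists were chosen with earlier results of these data known. The number of arrays limits the precision.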

Additional observations from a re-analysis of the deposited data

Results flagged for a closer look

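The genotype difference of the brighter Notch3 probe set was larger in brain cells than in aorta by a log2 difference of -1.78, and that of Casq2 by -2.09 (limma adjusted p = 0.0117 for both). Casq2 was named for its likeness to Notch3 over the brain arrays, so its flag is a description. In aorta Casq2 was dim, at 22.9 ± 2.81 in Notch3 +/- and 31.6 ± 5.28 in Notch3 -/- (SD, n = 3 each), a log2 difference of 0.29. Within the brain groups, 11 of 120 sets of array values of named genes held 1 array far from the others by Dixon's criterion. Values not picked for their pattern meet it in about 1 in 20. Many of these genes were named for their slope on Notch3, which was lowest on H and on B in their groups. That rate therefore does not apply to them. Array H of Notch3 +/- and array B of Notch3 -/- accounted for 4 and 5 of the 11, which is a description. The ratio of the gap to the whole range was 0.73 for the dimmer Notch3 probe set in Notch3 -/-, where A read 66.6 and the others 26.7 to 37.5. In Notch3 +/- H was apart for Srsf5 (0.914), Ercc1 (0.869), Heyl (0.846) and Acta2 (0.941), where it read 30846 and the others 16729 to 17558. In Notch3 -/- B was apart for Snap47 (0.73), Pdgfrb (0.727), Lims2 (0.865), Tlcd3a (0.866) and Tesc (0.831), and D for Rgs5 (0.747).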

How the results depend on the processing

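The fall of Notch3 in brain cells and its excess in brain over aorta kept their direction and their call at the brighter probe set under every alternative run. Differences ranged from -3.65 to -3.30 between genotypes in brain, from 2.53 to 2.75 between tissues in Notch3 +/- and from 0.68 to 1.09 in Notch3 -/-. In aorta the genotype difference was -1.78 with all 15 arrays in the fit (limma adjusted p = 0.000868), where 2 probe sets passed. With 1 array left out it ranged from -1.99 to -1.61, its adjusted p from 0.0168 to 0.667 and the count from 0 to 7. With no filter its adjusted p was 0.661. The difference between tissues ranged from -1.94 to -1.57 with 1 array left out, and its count from 0 to 7, with 13 under array weights. In brain, 50 probe sets passed with a pseudocount of 64, 18 with no filter, 52 with array weights and 137 with all 15 arrays in the fit, and 10 to 38 with 1 array left out. The within-group count in brain was 0 with the dimmer probe set or the mean of both as the Notch3 level and under quantile normalization, 1 with no filter or no trend, and 0 to 3 with 1 array left out. Over both tissues 9 passed with the dimmer probe set. The cause of these shifts was not tested. No paired analysis was possible because the groups share no replicate names. With the number series of the aorta names as a block, the aorta difference was -1.78 (adjusted p = 0.133) and 0 probe sets passed. Signal over background limits the readings of Notch3 -/- arrays, whose depth of detection is unknown.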
